A study of Rattus norvegicus with 10 samples.

Results

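A list of 10 genes of lipid transfer, lipolysis, efflux and uptake was followed in splenic M2 macrophages of rats, and 9 of the 10 had a row among the 9003 genes of the deposited table. The 9 genes were Pltp, Lpl, Abca1, Abcg1, Apoe, Cd36, Nr1h3, Plin2 and Scarb1, while Fabp4 was not analysed here. The list had been chosen by name from earlier results of the same 10 libraries, which included the differences among the groups. The record of the list does not say which value put each gene on it. All differences of the 9 genes are therefore given as descriptions, and their adjusted p-values, taken over all 9003 genes, are no independent support for any direction.

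The libraries came from WKY/NCrj rats and fell into 4 groups. Control macrophages (n = 2) came from rats in the physiological state, and GN macrophages (n = 2) from rats with glomerulonephritis that received no cells. The nephritis was induced with TF78, a mouse monoclonal antibody against the glomerular basement membrane, in female rats of 7 to 12 weeks. EV+ and EV- macrophages (n = 3 each) came from nephritic rats given human adipose-derived stem cells (ASCs) whose membranes had been labeled with the dye DiD. EV+ cells were sorted as DiD-positive and EV- cells as DiD-negative, so both groups share the nephritis and the ASCs. The gate was set on the dye, which stains membrane of any kind. The age of the control rats, the day on which the sequenced spleens were taken and any pooling of rats were not given in the sources used here. The replicates are described as biological, and no source states whether EV+ and EV- libraries of the same number came from the same rat.

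Macrophages take up lipoproteins, modified lipid and dead cells, and they store the surplus cholesterol as esters in lipid droplets or hand it to acceptors outside the cell. Cholesterol derivatives activate the liver X receptors (LXR), of which Nr1h3 encodes the alpha form, and LXR is known to raise the transcription of Abca1, Abcg1, Apoe, Pltp and Lpl in macrophages. ABCA1 loads lipid-poor apolipoproteins, ABCG1 passes cholesterol to HDL, and SR-BI (Scarb1) exchanges cholesteryl ester with HDL. Phospholipid transfer protein (Pltp) moves phospholipid between lipoproteins, and lipoprotein lipase (Lpl) releases fatty acids from their triglycerides. PPAR gamma (Pparg) is known to raise Cd36, the receptor for long-chain fatty acids and oxidized LDL, and Plin2, which coats lipid droplets.

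Promoter windows of 250 bases before and 50 after the gene start were held for 6 of the 9 genes in RefSeq (build GRCr8, which differs from the rn6 build of the reads), and not for Lpl, Abcg1 or Scarb1. The 250 bases before the start are shown for Pltp and Nr1h3, a target of LXR and its receptor, and for Cd36 and Plin2, which were both highest in control. Capitals mark the letters of PU.1 cores, TATA boxes, E-boxes and GC boxes, searched on both strands and with no overlap between them.
Pltp (chr3:174011983-174012232, minus strand): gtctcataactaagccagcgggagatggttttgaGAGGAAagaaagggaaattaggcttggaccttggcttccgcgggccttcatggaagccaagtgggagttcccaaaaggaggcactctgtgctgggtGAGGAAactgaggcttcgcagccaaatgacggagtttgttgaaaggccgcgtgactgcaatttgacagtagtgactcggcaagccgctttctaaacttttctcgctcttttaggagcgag
Nr1h3 (chr3:97623230-97623479, minus strand): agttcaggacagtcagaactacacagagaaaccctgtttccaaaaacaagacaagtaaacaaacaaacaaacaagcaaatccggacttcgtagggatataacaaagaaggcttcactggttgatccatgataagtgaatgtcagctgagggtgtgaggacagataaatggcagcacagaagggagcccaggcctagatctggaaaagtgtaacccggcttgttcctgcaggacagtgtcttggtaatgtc
Cd36 (chr4:18246332-18246581, plus strand): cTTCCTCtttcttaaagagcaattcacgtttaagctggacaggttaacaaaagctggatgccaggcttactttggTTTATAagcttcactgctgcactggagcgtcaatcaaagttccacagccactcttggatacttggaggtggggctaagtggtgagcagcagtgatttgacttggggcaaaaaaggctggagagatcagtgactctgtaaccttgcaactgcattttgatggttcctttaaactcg
Plin2 (chr5:106229019-106229268, minus strand): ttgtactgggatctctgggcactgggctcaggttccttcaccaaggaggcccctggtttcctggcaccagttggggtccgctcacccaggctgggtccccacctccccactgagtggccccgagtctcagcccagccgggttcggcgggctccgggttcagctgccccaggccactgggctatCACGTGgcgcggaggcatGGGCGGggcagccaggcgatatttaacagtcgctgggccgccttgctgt

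The Pltp window held 2 PU.1 cores (GAGGAA), at -216 to -211 and at -120 to -115 from the start, and the Cd36 window held 1 on the opposite strand. PU.1 is the myeloid lineage factor, and its core occurred in 26.8% of 7292 windows of genes in the table. Neither an LXR-type repeat (the half-site AGGTCA repeated after 4 bases) nor a PPAR-type repeat (repeated after 1 base) was in any of the 6 windows, and they occurred in 0.0686% and 0.178% of the windows of table genes. The half-site AGGTCA alone was also in none of the 6 and occurred in 11.6%. The E-box (CACGTG) lay, together with the GC box that reads GGGCGG, in the Abca1 and Plin2 windows, and they were found in 9.68% and 63.8% of the windows. A TATA box (TATAAA) lay in the Abca1 and Cd36 windows and occurred in 6.39%. The AP-1 site (TGANTCA), found in 4.81% of the windows, was in none of the 6. Neither the cyclic AMP element nor the box CCAAT was in any, and they occurred in 3.46% and 38.5%. The search covers only these letters in these windows and says nothing of distant sites or of half-sites with other letters. The Abca1 window, for example, held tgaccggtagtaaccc. On the opposite strand this reads GGGTTA and CGGTCA with 4 bases between them, a spaced pair that the exact search did not cover.

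The libraries held between 19270515 and 26617093 reads on the listed genes, so that 3 reads were worth 0.113 to 0.153 CPM, that is, counts scaled to a library size adjusted by the TMM method, a floor for counting error only. Of 12 macrophage markers 11 were in the table, with Lyz2, Csf1r and Cd68 at no less than 15300, 5800 and 1160 CPM in any library. The markers of M2 and resident macrophages, Cd163 and Mrc1, were at 0 to 1.81 CPM in all libraries, so that the label M2 rests on the flow sort. The summed macrophage markers lay at 24980 to 25410 CPM in control and at 29020 to 31180 CPM in the other 8 libraries. EV- replicate 1 stood apart with 916 CPM of NK and T cell markers against 278 to 423 CPM elsewhere. Cd8a, at 199 to 333 CPM, led this sum in every library but EV- replicate 1, where Prf1 had 335 CPM and Cd8a 333 CPM. Gzmb, Prf1, Nkg7, Klrd1 and Cd3e, picked from that list after their values were seen, summed to 35.3 to 478 CPM in the EV- libraries and to 11.6 to 27.3 CPM in the other 7. Their sum was thus higher in all EV- libraries, though Klrd1 had 1.87 CPM in EV- replicate 3 and 1.99 CPM in EV+ replicate 1. The other listed genes, Cd8a, Cd8b, Cd2, Klrb1a and Lck, each overlapped between EV- and the other libraries. Cd8b had 68.2 to 72.8 CPM in EV- and 69.3 to 78 CPM in EV+ libraries. The part of all these genes in the EV- results was not tested. The main values that rest on EV- replicate 1 are also given without it. Endothelial cells, which also carry Lpl on their surface, had 1 of 8 markers in the table (Pecam1, which leukocytes also express), and adipocytes and stroma had 3 of 10, at a sum of 7.67 to 12.6 CPM while Adipoq and Plin1 were not analysed here. In sorted bulk cells, fewer cells of a type and less RNA per cell cannot be told apart.

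Pltp was highest in GN, lower in EV+, lower again in control and lowest in EV-. It had 4.31 and 3.46 CPM in control, 17.75 and 12.01 CPM in GN, 9.53, 8.88 and 6.25 CPM in EV+, and 1.94, 2.91 and 2.14 CPM in EV- libraries. No value of any group overlapped with those of another group, a separation that 21 of the 9003 genes (0.233%) had. Gaps between only 2 groups were common. Against control, 43.9% of all genes did not overlap for GN, 30.5% for EV+ and 29.1% for EV-, in either direction. Against GN the shares were 23% for EV+ and 25.4% for EV-, and between EV+ and EV- 8.91%. The levels of Pltp rested on 40 to 450 reads per library. The mean ± SD was 3.89 ± 0.601 CPM for control (n = 2), 14.9 ± 4.06 CPM for GN (n = 2), 8.22 ± 1.74 CPM for EV+ (n = 3) and 2.33 ± 0.508 CPM for EV- (n = 3). The mean in GN was thus 3.83 times that of control, and the mean in EV+ was 3.53 times that of EV-.

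On the scale of log2(CPM + 1), Pltp rose in GN against control by 1.68 (SE 0.258, adjusted p = 0.00579 by limma) and in EV+ against control by 0.90 (SE 0.236, adjusted p = 0.0688). EV- libraries lay under GN with a difference of -2.24 (SE 0.236, adjusted p = 0.000832), and EV+ libraries lay over EV- by 1.46 (SE 0.211, adjusted p = 0.0394). The differences of -0.56 between EV- and control (adjusted p = 0.319) and of -0.78 for EV+ from GN (adjusted p = 0.467) did not pass. Single libraries decided some of these calls. Without GN replicate 1 the difference between GN and control was 1.42 (adjusted p = 0.112). The call between EV+ and control was lost without either control library or without EV+ replicate 1 or 2 (adjusted p = 0.143 to 0.428). Between EV+ and EV-, the adjusted p was 0.204 without EV+ replicate 1, 0.123 without EV+ replicate 2 and 0.266 without EV- replicate 1, with differences of 1.36, 1.40 and 1.38. The difference between EV- and GN passed in all fits that left out a library, and without EV- replicate 1 it was -2.16 (adjusted p = 0.00340).

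Lpl followed the same order at the upper end. It had 40.6 and 36.7 CPM in control, 108 and 76.3 CPM in GN, 66.5, 61.8 and 68.4 CPM in EV+, and 41.2, 41.7 and 38.0 CPM in EV- libraries. Both GN libraries lay above all EV+ libraries, and these lay above all others, while control and EV- overlapped. The pairs so separated did not overlap in 8.91% to 43.9% of all genes. The means were 38.7 ± 2.75, 92.3 ± 22.6, 65.6 ± 3.39 and 40.3 ± 2.02 CPM in control, GN, EV+ and EV-.

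Lpl rose in GN against control by 1.21 on the log2 scale (SE 0.143, adjusted p = 0.000958), a mean 2.39 times as high. It rose in EV+ against control by 0.75 (SE 0.131, adjusted p = 0.00669), and without control replicate 2 the adjusted p was 0.1135. Compared with GN, EV- showed a difference of -1.15 (SE 0.131, adjusted p = 0.000832), and by -1.17 without EV- replicate 1 (adjusted p = 0.00404). Between EV- and control the difference was 0.06, with a 95% interval of -0.22 to 0.34. Neither the difference of EV+ from GN (-0.47, adjusted p = 0.411) nor that of EV+ from EV- (0.69, SE 0.117, adjusted p = 0.125) passed. Without EV- replicate 1 the last was 0.70 (adjusted p = 0.382). Once the replicate number entered as a block over the libraries of all groups, the difference of EV+ from EV- passed (adjusted p = 0.0730 by limma). In the same-numbered pairs of EV+ and EV- libraries, Lpl was 1.61, 1.48 and 1.80 times as high in EV+, and Pltp was 4.90, 3.06 and 2.92 times as high.

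**Figure D1:**
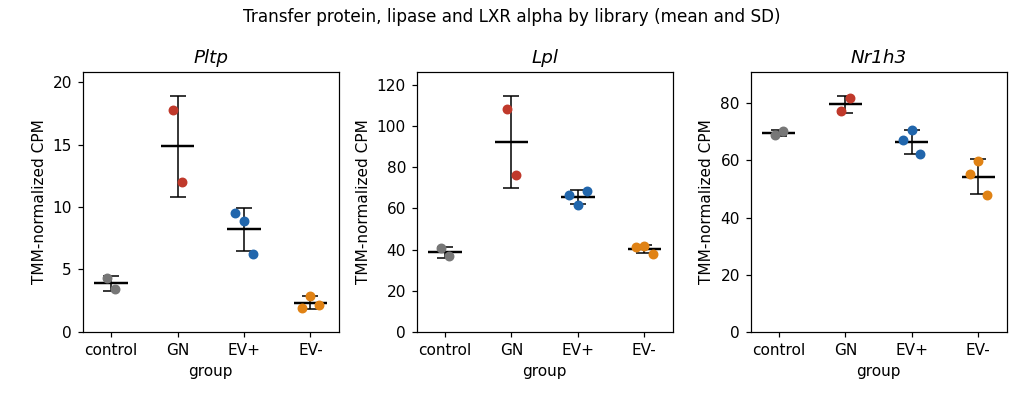
CPM of Pltp, Lpl and Nr1h3 (vertical axes, TMM-normalized CPM from 0) in each library of control, GN, EV+ and EV- macrophages. Points are libraries, horizontal lines are group means and bars are SD. The GN libraries are highest for all 3 genes, and the EV+ libraries exceed the EV- libraries in each. Of all genes, 43.9% do not overlap between GN and control and 8.91% between EV+ and EV-, in either direction.

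Nr1h3, the LXR alpha gene, was also highest in GN and lowest in EV-. It had 68.8 and 70.4 CPM in control, 77.35 and 81.8 CPM in GN, 67.0, 70.5 and 62.2 CPM in EV+, and 55.2, 59.8 and 47.8 CPM in EV- libraries. The GN values lay above and the EV- values below all others, while control and EV+ overlapped. The pairs so separated did not overlap in 8.91% to 43.9% of all genes. Of the 6 comparisons, only that of EV- with GN passed, with a log2 difference of -0.55 (SE 0.106, adjusted p = 0.0609). Without EV- replicate 1 it was -0.56 (adjusted p = 0.109), and it also did not pass without GN replicate 1, GN replicate 2 or EV- replicate 3 (adjusted p = 0.142 to 0.476). The other differences did not pass. GN differed from control by 0.19 (adjusted p = 0.638), EV- from control by -0.36 (adjusted p = 0.127), EV+ from GN by -0.26 (adjusted p = 0.673) and EV+ from EV- by 0.29 (adjusted p = 0.9345). The means in GN and EV- were 79.6 ± 3.13 and 54.3 ± 6.08 CPM.

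Apoe, whose product carries cholesterol from the cell, was low and highest in GN. It had 8.01 and 5.36 CPM in control, 11.95 and 11.4 CPM in GN, 2.11, 5.98 and 4.82 CPM in EV+, and 3.50, 5.50 and 3.19 CPM in EV- libraries. Both GN libraries lay above all others, and the other 3 groups overlapped. Between GN and any other group, 23% to 43.9% of all genes did not overlap. Among the 4 groups Apoe had an adjusted p of 0.0946, and no pair of groups passed. It was not called among the groups with the replicate block, edgeR's quasi-likelihood test, a pseudocount of 0.1 or no intensity trend, nor without any single control or GN library, EV+ replicate 3, EV- replicate 1 or EV- replicate 3. GN differed from control by 0.74 on the log2 scale (adjusted p = 0.469), EV+ from GN by -1.34 (adjusted p = 0.258) and EV- from GN by -1.35 (adjusted p = 0.149). With DESeq2 on the recovered reads the last of these had an adjusted p of 0.0183, and without EV- replicate 1 it was -1.28 by limma (adjusted p = 0.244). The complement genes C1qa, C1qb and C1qc, picked from the macrophage list after their values were seen, had their highest sum in GN as well, at 26.2 to 27.5 CPM against 5.91 to 18.5 CPM in the other libraries. Cd68 and Aif1 of the same list were not higher in GN, with 1250 CPM in both GN libraries against 1320 and 1370 CPM in control for Cd68, and 519 and 516 against 590 and 687 CPM for Aif1. The part of any of these in the values of Pltp and Apoe was not tested.

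The efflux transporters Abca1 and Abcg1 and the HDL receptor Scarb1 passed in no comparison. Abca1 had 9.51 and 5.36 CPM in control, 4.61 and 8.81 CPM in GN, 6.84, 10.15 and 9.01 CPM in EV+, and 4.37, 11.4 and 4.55 CPM in EV- libraries. Each group of Abca1 overlapped with the others, with an SD of up to 4.02 CPM, and the 95% intervals of its 6 log2 differences reached from -0.98 to 1.13. Abcg1 had 509.7 and 464 CPM in control, 482 and 452 CPM in GN, 424, 528 and 506 CPM in EV+, and 371, 516 and 466 CPM in EV- libraries. Its intervals lay between -0.39 and 0.35.

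Scarb1 had 184 and 156 CPM in control, 167 and 163 CPM in GN, 175, 165 and 171 CPM in EV+, and 182, 159 and 178 CPM in EV- libraries. Its intervals lay between -0.25 and 0.25. The data thus bound differences of Abcg1 and Scarb1 far more closely than those of Abca1. The lowest adjusted p over the 6 comparisons was 0.840 for Abca1, 0.747 for Abcg1 and 0.933 for Scarb1.

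**Figure D2:**
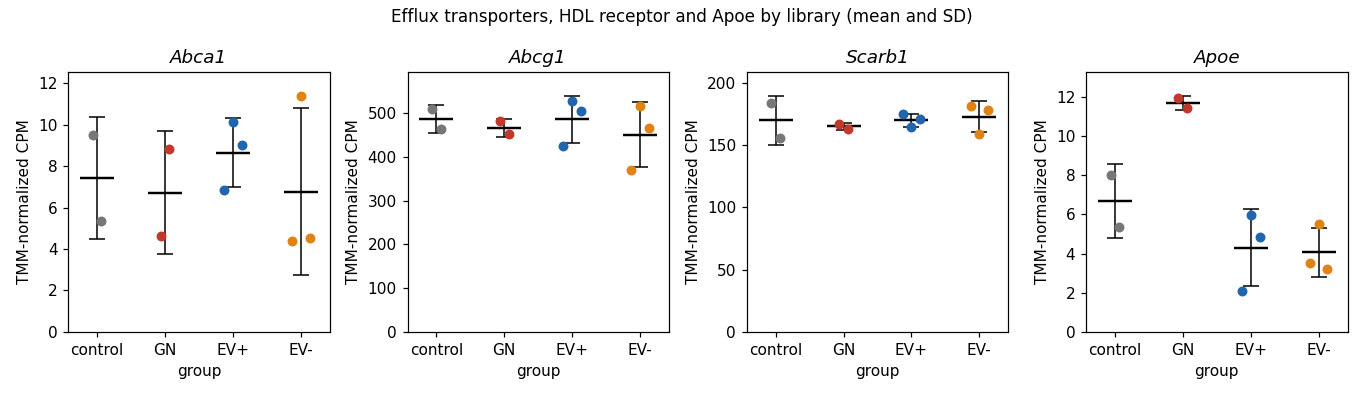
CPM of Abca1, Abcg1, Scarb1 and Apoe (vertical axes, TMM-normalized CPM from 0) in each library of control, GN, EV+ and EV- macrophages. Points are libraries, horizontal lines are group means and bars are SD. The groups overlap for the transporters and Scarb1, whereas both GN libraries of Apoe, at 11.95 and 11.4 CPM, lie above the rest.

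Cd36 and Plin2, for fatty acid uptake and lipid droplets, were highest in control. Cd36 had 205 and 235 CPM in control, 156 and 176 CPM in GN, 183, 177 and 179 CPM in EV+, and 169, 193 and 182 CPM in EV- libraries. Both control libraries lay above all others. Between control and any other group, 29.1% to 43.9% of all genes did not overlap. Cd36 fell in GN against control by 0.40 on the log2 scale (SE 0.0970, adjusted p = 0.0743). The call was lost without control replicate 2, GN replicate 1, GN replicate 2, EV+ replicate 3 or EV- replicate 3 (adjusted p = 0.102 to 0.451). The differences from control of EV+ (-0.29, adjusted p = 0.124) and EV- (-0.28, adjusted p = 0.165) did not pass.

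Plin2 had 1732 and 1712 CPM in control, 1383 and 1294 CPM in GN, 1516, 1406 and 1348 CPM in EV+, and 1521, 1508 and 1425 CPM in EV- libraries. Again both control libraries were above all others (29.1% to 43.9% of all genes without overlap, as for Cd36), and the remaining groups lay close together. Plin2 fell by 0.36 in GN against control (SE 0.0782, adjusted p = 0.0417) and by 0.28 in EV+ against control (SE 0.0714, adjusted p = 0.0665). The difference between EV- and control was -0.21 (adjusted p = 0.186). Both calls were lost without either control library and without either GN library, and the second also without EV+ replicate 3 (adjusted p = 0.103 to 0.421). Control also had the lower sum of macrophage markers given above, which Lyz2 led with 15300 and 16100 CPM in control and 17500 to 20200 CPM elsewhere. Csf1r, Adgre1 and Itgam of that list were also lower in both control libraries than in all others. Aif1 (590 and 687 CPM in control, 460 to 628 CPM elsewhere) and Cd68 (1320 and 1370 CPM, 1160 to 1470 CPM elsewhere) were not. The part of these markers in the differences of Cd36 and Plin2 was not tested.

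**Figure D3:**
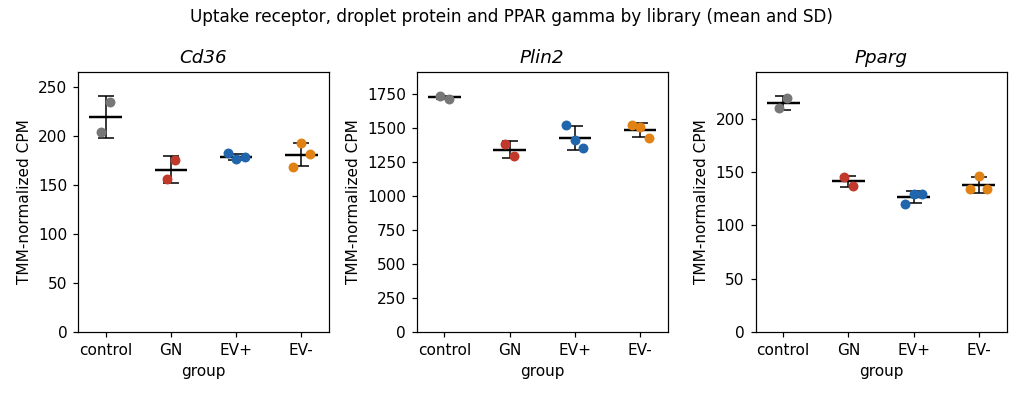
CPM of Cd36, Plin2 and Pparg (vertical axes, TMM-normalized CPM from 0) in each library of control, GN, EV+ and EV- macrophages. Points are libraries, horizontal lines are group means and bars are SD. The 2 control libraries are the highest for each of the 3 genes. Between control and any other group, 29.1% to 43.9% of all genes do not overlap.

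Set side by side, 5 of the 9 genes (Pltp, Lpl, Nr1h3, Apoe and Plin2) passed an adjusted p under 0.1 among the 4 groups, as did 2.57% of all 9003 genes. Since the list was drawn up with these differences known, nothing is read from such shares. In GN against control 2 were higher and 2 lower (1.75% of all genes in either direction), and in EV+ against control 2 were higher and 1 lower (3.63%). In EV- against control none passed (2.84%), while 4 of the 9 and 13.1% of all genes had an unadjusted p under 0.05. DESeq2 called 3 there (Cd36, Nr1h3 and Plin2) among 474 genes in all, and edgeR's likelihood-ratio test 1 (Nr1h3) among 444. In EV+ against GN none passed (0.122%), with 4 of the 9 and 7.13% of all genes at an unadjusted p under 0.05. Both of these tests called Apoe there, among 41 genes by DESeq2 and 43 by the likelihood-ratio test. In EV- against GN 3 were lower (0.378%), and in EV+ against EV- 1 was higher (0.0222%). The median log2 difference of the 9 genes was -0.04 between GN and control and 0.11 between EV+ and EV-, beside -0.00014 and -0.0077 over all genes. The 3 comparisons with control share its libraries, as the 3 with GN share those of GN.

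**Figure D4:**
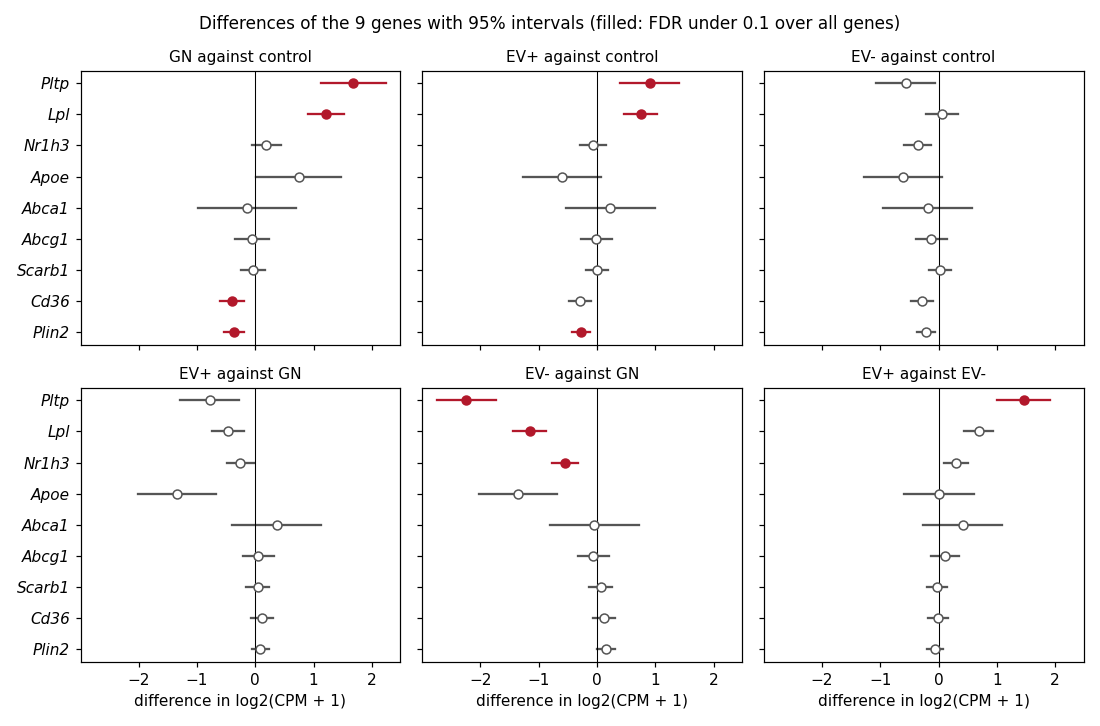
Differences in log2(CPM + 1) of the 9 genes (rows) in the 6 comparisons (panels), with 95% intervals from limma. Filled red points have an adjusted p under 0.1 over all 9003 genes. Pltp and Lpl lie right of 0 in GN and EV+ against control and left of 0 in EV- against GN, while the intervals of Abca1, Abcg1 and Scarb1 include 0 in every panel.

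The lists of other lipid-handling genes held 85 genes, of which 56 were in the table and 5 passed in any comparison. In GN against control 2 of the 56 were lower (1.75% of all genes in either direction), in EV+ against control 1 was higher and 3 lower (3.63%), and in EV- against control 2 were lower (2.84%). In EV+ against GN 1 was higher (0.122%), and none passed in EV- against GN (0.378%) or between EV+ and EV- (0.0222%). With 56 genes these counts are too few to be read against the shares of all genes. DESeq2 called 2 in EV- against GN (Apobr and Lipg), and edgeR's likelihood-ratio test 1 (Lipg). Of the 12 LXR and PPAR targets tested, limma called 1 (Arl4c, lower in EV+). Cpt1a, a PPAR target for fatty acid oxidation, exceeded control by 0.50 in EV+ (adjusted p = 0.135) and by 0.38 in EV- (adjusted p = 0.295). Cpt1a was called in EV+ against control by DESeq2, the likelihood-ratio test and the replicate block, and in EV- against control by the block. It was also called in both without EV- replicate 3. Lrp1, an uptake receptor, differed by -0.41 between GN and control (adjusted p = 0.156 by limma). It was called there by DESeq2, the likelihood-ratio test, the replicate block and without EV+ replicate 2. Limma called none of the 9 genes of efflux and lipoprotein remodelling.

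Of the 5, Pparg passed in 3 comparisons. It had 210.2 and 220.1 CPM in control, 145.2 and 137.5 CPM in GN, 120.5, 129.7 and 130.0 CPM in EV+, and 133.9, 146.8 and 134.2 CPM in EV- libraries. Both control libraries lay above all others, where 29.1% to 43.9% of all genes did not overlap between control and another group. Pparg fell by 0.60 in GN (adjusted p = 0.00454), by 0.76 in EV+ (adjusted p = 0.000104) and by 0.64 in EV- (adjusted p = 0.000555) against control, and these calls passed in every fit that left out a library. The related receptor genes Nr1h2 (LXR beta) and Rxra, the partner of both receptor types, did not pass, with means of 294 to 302 CPM and 44.4 to 56.3 CPM over the groups.

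Lipg, for endothelial lipase, had 32.1 and 29.8 CPM in control, 15.6 and 18.0 CPM in GN, 32.7, 28.8 and 27.6 CPM in EV+, and 23.2, 30.3 and 23.4 CPM in EV- libraries. Both GN libraries lay below all others, the opposite place to that of Lpl. Between GN and any other group, 23% to 43.9% of all genes did not overlap. Lipg fell by 0.85 in GN against control (adjusted p = 0.0179), and EV+ exceeded GN by 0.79 (adjusted p = 0.0893). Without control replicate 1 or GN replicate 1 the first had an adjusted p of 0.1325 or 0.188. The second was lost when any control, GN or EV+ library was left out (adjusted p = 0.107 to 0.846).

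G0s2, an inhibitor of triglyceride lipolysis, had 3041 and 3120 CPM in control, 2497 and 2295 CPM in GN, 1557, 2057 and 2073 CPM in EV+, and 1605, 2058 and 2145 CPM in EV- libraries. It fell by 0.71 in EV+ (adjusted p = 0.00978) and by 0.68 in EV- (adjusted p = 0.0165) against control, and the difference between GN and control did not pass (adjusted p = 0.359). Without EV- replicate 1 the difference of EV- was -0.55 (adjusted p = 0.0604). Without control replicate 2 the adjusted p was 0.116 for EV+ and 0.160 for EV-, and without control replicate 1 it was 0.107 for EV-.

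Arl4c, an LXR target, fell by 0.40 in EV+ against control (adjusted p = 0.0674), and Lipa, the lysosomal acid lipase gene, rose there by 0.25 (adjusted p = 0.0923). Both calls were lost without any single control or GN library and without EV+ replicate 1 or 3, and that of Lipa also without EV+ replicate 2, EV- replicate 1 or EV- replicate 3. Of the genes held only for their levels, Npc1 and Npc2, which export cholesterol from lysosomes, had means of 47.3 to 50.9 and 216 to 261 CPM. Soat1, the esterifying enzyme, had 120 to 146 CPM, and Msr1 and Fabp5 had means under 2 CPM. None of these passed in any comparison, with an adjusted p of no less than 0.2395.

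Pltp and Lpl varied together over the 10 libraries, with a Pearson r of 0.936 on the log2 scale. The points share their groups, so that this is a description with no p. Nr1h3 had r of 0.812 with Pltp, Cd36 had 0.761 with Plin2, and Abca1 had 0.656 with Abcg1. Among 7184 other genes with a mean of at least 5 CPM, the patterns most like Pltp were those of Serpinb1a (r = 0.961), Plvap (0.948) and Tp53inp2 (0.934). The patterns most like Lpl were those of Trim46 (0.964), Acp2 (0.949) and again Plvap (0.919). Plvap had means of 94.9, 173, 131 and 75.3 CPM in control, GN, EV+ and EV-, the same order as Pltp.

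**Figure D5:**
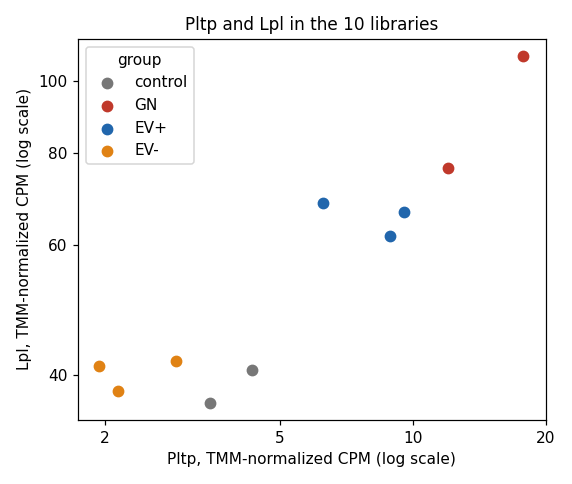
Pltp (horizontal axis) against Lpl (vertical axis), both in TMM-normalized CPM on log scales, with a point for each of the 10 libraries coloured by group. GN libraries lie at the upper right, EV+ libraries in the middle, and control and EV- libraries at the lower left, where Lpl overlaps and Pltp does not.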

How the data were processed

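RNA of flow-sorted splenic macrophages was sequenced in 10 paired-end libraries (SMART-Seq v4, Nextera XT). Per the labels and methods, the authors aligned reads to rn6 with STAR (2.5.3), counted them on RefSeq genes with HTSeq (0.6.0), removed genes whose maximum stayed under 1 CPM and applied TMM in edgeR. The deposited signal is TMM-normalized CPM, in which 100% of values gave whole reads within 0.1 read. CPM recomputed from these reads differed by at most 4e-05. The smallest row maximum was 1.01 CPM, and 18 symbols had been turned into dates.

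A pseudocount of 1 was added before log2, and limma (version 3.58.1, R 4.3.3) with an intensity trend was fitted to all 10 libraries with group as the only term and 6 residual degrees of freedom. Calls were made at a Benjamini-Hochberg adjusted p under 0.1 over 9003 genes. Recovered reads were used for edgeR (4.0.16) and DESeq2 (1.42.0) as alternatives. The scripts were tested on simulated data. Chi-square comparisons of replicates gave a ratio of 13.5 to 46 to the degrees of freedom, and no 2 replicates of a group were alike.

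The members, lists and tests were chosen with earlier results of these data known. Genes named are the members, listed lipid genes called in any comparison, 7 further lipid genes by level only, and the 3 genes most like Pltp and Lpl. C1q genes, Cd68, Aif1, Adgre1, Itgam, the 5 NK and T cell genes and the others of their list, Cpt1a, Apobr, Lrp1 and the level of Plvap were added after their values were seen. Some genes the rule names are not reported here. After group means were removed, same-numbered EV+ and EV- libraries correlated at r = 0.122 to 0.295, all above 0.1, and control and GN gave 0.0878. A pairing of EV+ and EV- by replicate number was thus taken from the data alone, since no source states it. It entered only the block fits, while the main fit had group as its only term. The block over all libraries also tied control and GN libraries to each other and to the EV+ and EV- libraries by number. The correlations of those pairs were -0.141 to 0.0878, so the data gave no ground for that part of the block. Alternatives were other tests, a pseudocount of 0.1, DESeq2 size factors, a filter of at least 1 CPM in at least 2 libraries, no intensity trend, FDR under 0.05, a replicate block, fits restricted to the libraries of a comparison, and leaving out each library. A block fit restricted to EV+ and EV-, and all alternatives for non-members, were added after the data were seen.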

Additional observations from a re-analysis of the deposited data

Results flagged for a closer look

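Pltp was flagged because its level differed between the EV+ and EV- macrophages of the ASC-treated rats in a direct test. The log2 difference was 1.46 (adjusted p = 0.0394 by limma), with all 3 EV+ libraries above all 3 EV- libraries. Of all genes, 8.91% did not overlap between these groups, in either direction. The Pltp difference rested on 40 to 57 reads in the EV- libraries and 140 to 244 reads in the EV+ libraries. Groups of 2 or 3 libraries were too small to call a single sample an outlier, and each library was left out in turn instead. By limma the call was lost without EV+ replicate 1 (adjusted p = 0.204), EV+ replicate 2 (0.123) or EV- replicate 1 (0.266). It was also lost without the intensity trend (0.354) and in a fit of only EV+ and EV- (0.105).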

How the results depend on the processing

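Of 1035 alternative values of the 54 differences of the 9 genes, 934 kept direction and side of the threshold, 38 were no longer called, 23 were newly called and 40 changed sign. None of those that changed sign had been called, and the largest of them was 0.37 in size on the log2 scale. The difference of Lpl between EV- and control was -0.011 without control replicate 2 and up to 0.13 without other libraries. Among the 4 groups, 5 genes were called, 2 at an FDR under 0.05, 2 without the intensity trend and 2 to 5 without a library. Between GN and control, 4 were called, 2 without the trend and 1 to 4 without a library. Between EV+ and control, 3 were called, 1 each at an FDR under 0.05, without the trend and in a fit of only these groups, and 0 to 3 without a library (0 without control replicate 2). Between EV- and control, 0 were called, 1 by edgeR's likelihood-ratio test, 3 by DESeq2, and 0 to 1 without a library. Between EV+ and GN, 0 were called, 1 by the likelihood-ratio test and 1 by DESeq2. Between EV- and GN, 3 were called, and 2 to 4 without a library. Between EV+ and EV-, 1 was called, 2 each by the likelihood-ratio test, DESeq2, a pseudocount of 0.1, the replicate block and the block in the 6 EV+ and EV- libraries alone, 0 without the trend (adjusted p of Pltp 0.354) and 0 to 2 without a library. In a fit of only these 2 groups Pltp had an adjusted p of 0.105 and Lpl of 0.0747. The replicate block changed no other count of called members by over 1.5 times, and the cause of these changes was not tested. Counts over all genes also moved, from 231 to between 93 and 616 among the 4 groups, from 158 to between 34 and 294 for GN against control, from 327 to between 114 and 540 for EV+ against control, from 256 to between 94 and 474 for EV- against control, from 11 to between 0 and 43 for EV+ against GN, from 34 to between 6 and 126 for EV- against GN, and from 2 to between 0 and 57 for EV+ against EV-. Pltp, Abca1 and Apoe had the fewest reads and the widest intervals of the 9, and the part of depth in this was not tested.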

Other observations

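The haemoglobin genes Hba1 and Hbb summed to 1.19 to 1.61 CPM in control, 6.44 to 7.26 CPM in GN, 3.28 to 4.80 CPM in EV+ and 3.72 to 6.30 CPM in EV-, so they were highest in GN as were Pltp and Lpl, but EV+ and EV- overlapped. The genes of this sum were picked from the marker lists after their values were seen.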
